A study of Caenorhabditis elegans with 12 samples.

Results

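A pair of positions along the oocyte row of the adult gonad were set side by side, oocyte -3 and oocyte -5 of wild-type Caenorhabditis elegans. By convention the numbers grow with distance from the spermatheca, which makes -3 the older and larger oocyte and -5 the younger. The comparison used 8 of the 12 single-oocyte libraries of the study, chosen by the position in their labels, 4 at -3 and 4 at -5. Both groups were untreated, wild type and adult by the labels, and the remaining 4 libraries, from oocyte -1 next to the spermatheca, were used for scaling and are given beside the pair where stated. All 8718 genes that passed a low-count filter, of 46903 in the table, were compared. By its title, the study dealt with oocytes held in meiosis I and their uptake of transcripts from somatic cells.

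Oocytes of this row have left pachytene and grow in diakinesis while they move towards the spermatheca. Transcription falls silent as they mature, and they fill with yolk taken up from the body cavity and with cytoplasm streamed in from the gonad core. They also hold maternal mRNA whose translation is held back by RNA-binding proteins such as LIN-41 and the PUF family. The thin gonadal sheath cells wrap these oocytes and touch them through gap junctions made of innexins. An eggshell is built after fertilisation from proteins and sugars loaded beforehand.

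Each library was the poly(A) RNA of 1 oocyte, read at its 3′ end after PCR. The labels name no animals, so the 4 oocytes of a position were not treated as replicates of a condition and no test was run between the positions. For each gene and position the 4 counts were added and divided by the added scaled library sizes to give its level in CPM (counts per 1e6). The exact Poisson interval of a level, at 95%, covers at most the counting error of reads. Differences are log2 ratios of the -3 level over the -5 level, and a positive ratio means higher at -3. Alongside the ratio stands whether all 4 values at -3 lay on one side of all 4 at -5. A CPM is a share of the RNA read, and the amount of RNA per oocyte was not measured. Values of single oocytes are listed in the order of replicates 1 to 4.

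The -3 libraries held 11478753 to 20446599 counts and the -5 libraries 11226569 to 15832936. A count was found for 8289 to 9536 genes per -3 oocyte and 9536 to 10015 per -5 oocyte, and for 8047 to 9409 and 9338 to 9756 genes after each library was thinned to the smallest of the 12. Oocyte -3 replicates 1 and 3 stood apart: their median correlation with the other libraries of the pair, over log2 levels of genes of at least 20 CPM, was 0.845 and 0.844, against 0.877 to 0.925 for the other 6. In replicate 1, 30 genes of at least 20 CPM in the rest of the 8 were below 1 CPM, and in replicate 3, 14 were, against 0 or 1 in each other library of the pair. A ratio of a named gene is therefore followed, in brackets, by the same ratio from -3 replicates 2 and 4 alone against the 4 of -5, and a median of ratios likewise.

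The 8 markers of oocytes were all present at high level. In the -3 oocytes oma-1, a zinc-finger protein needed for oocyte maturation, had 668, 999, 774 and 915 CPM, against 973, 860, 945 and 1006 CPM in the -5 oocytes. Of 48 sperm marker genes, which include the major sperm proteins, 0 passed the filter and 29 had no count in any of the 8 oocytes. The 48 took 0.00192, 6.97e-05, 0.00213 and 9.78e-06% of counts in the -3 oocytes. In the -5 oocytes they took 1.72e-05, 0.000396, 9.8e-05 and 0.000189%, so -3 replicates 1 and 3 were the highest. Markers of other tissues are given further below.

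Most genes lay close together at both positions. The median ratio over the 8718 genes was -0.01 and over the 5183 genes of at least 20 CPM also -0.01, with 83.1% of the second set within 1.5-fold. By 2-fold or more, 697 genes (7.99%) were higher at -3 and 793 (9.1%) were lower. Among genes of at least 20 CPM these counts were 86 (1.66%) and 61 (1.18%). Every -3 oocyte lay above every -5 oocyte in 249 genes (2.86%) and below in 275 (3.15%), and among genes of at least 20 CPM in 182 (3.51%) and 175 (3.38%). Both criteria were met by 48 genes on the higher side and 23 on the lower side of at least 20 CPM. Of the 86 and 61 genes, 38 and 29 remained past 2-fold from -3 replicates 2 and 4 alone, a setting that gave 62 higher and 64 lower. Of the 86, 64 were highest in -3 replicate 1, and in 21 of the 61 more than 50% of the -5 sum came from -5 replicate 4.

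**Figure D1:**
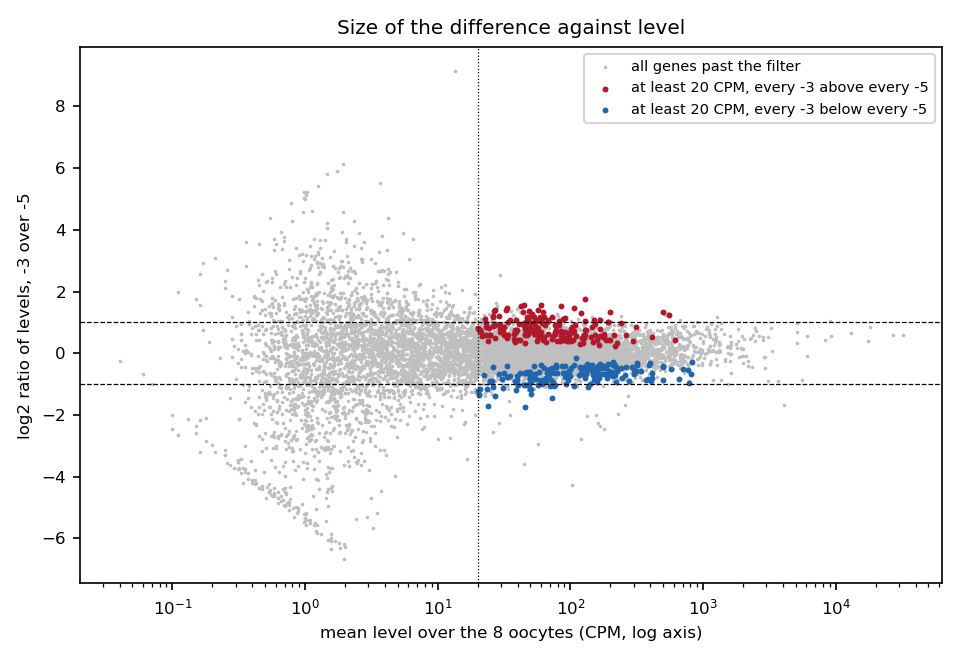
Log2 ratio of the -3 level over the -5 level (vertical) against the mean level over the 8 oocytes in CPM (log axis) for 8718 genes, with genes from 20 CPM upwards without overlap of the positions in colour. Dashed lines mark 2-fold and the dotted line 20 CPM; the spread narrows with level, and 83.1% of genes of at least 20 CPM lie within 1.5-fold.

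Among the 12 genes furthest above at -3 were regulators of RNA and of the germline. ZK1127.3 had the highest ratio, 1.75 (1.61), with 249, 135, 191 and 212 CPM in the -3 oocytes, against 61.4, 82.4, 66.9 and 38.7 CPM in the -5 oocytes. The RNA export factor homologue nxf-2 (chromosome V, 14416067 to 14417835, in the count table's coordinates) had 126, 50.3, 87.4 and 90.7 CPM in the -3 oocytes, against 20.2, 30.7, 49.1 and 27.2 CPM in the -5 oocytes, a ratio of 1.57 (1.3). Transcripts of sygl-1 (chromosome I, 12483809 to 12486235), a target of GLP-1 Notch signalling that keeps germline stem cells with the FBF proteins, stood at 85.4, 46, 57.5 and 58.4 CPM in the -3 oocytes, against 15.7, 31.9, 32.3 and 12.6 CPM in the -5 oocytes. Its levels were 62.5 CPM at -3 (95% counting interval 60.5 to 64.5) and 21.8 CPM at -5 (20.5 to 23.1), a ratio of 1.52 (1.3). In each of these 3 genes the lowest -3 oocyte lay above the highest -5 oocyte, as the choice of genes without overlap required.

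Cell division and mitochondrial genes made up part of the rest. The gamma-tubulin gene tbg-1, which nucleates microtubules, was even across the -3 oocytes. It had 38.1, 41, 36.2 and 40.3 CPM in the -3 oocytes, against 18.1, 9.33, 14.1 and 16.9 CPM in the -5 oocytes, and its ratio was 1.39 (1.45). For apc-11, the RING subunit of the anaphase-promoting complex, the values were 129, 60, 80 and 59.6 CPM in the -3 oocytes, against 28.4, 34.3, 36.7 and 26.6 CPM in the -5 oocytes. That ratio was 1.41 (0.95), with the highest value in -3 replicate 1. The fumarase gene fum-1 had 54.2, 28.1, 30.8 and 39 CPM in the -3 oocytes, against 15.1, 19.1, 22 and 6.75 CPM in the -5 oocytes, a ratio of 1.4 (1.25). The iron-sulphur protein gene cisd-1 had 49.2, 43.2, 67.2 and 38.4 CPM in the -3 oocytes, against 11.09, 26.2, 14.4 and 18.2 CPM in the -5 oocytes, a ratio of 1.48 (1.18), and 16.4% of its exon length is shared with other genes.

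A zinc-finger gene, zfp-2, had 204, 125, 163 and 130 CPM in the -3 oocytes, against 39.1, 84.6, 66.1 and 43.7 CPM in the -5 oocytes, a ratio of 1.46 (1.18). The other 4 of the 12 carry sequence names. C06H2.7 had 182, 121, 84.9 and 113 CPM in the -3 oocytes, against 39, 42.4, 63.6 and 32.6 CPM in the -5 oocytes, a ratio of 1.55 (1.45). F32D8.5 had a ratio of 1.56 (1.58) and shares 31.1% of its exon length with other genes, so part of its reads may not be its own. Y71H2AM.20 and C30H6.9 had ratios of 1.4 (1.13) and 1.39 (1.22). In nxf-2, sygl-1, zfp-2 and fum-1, -5 replicates 1 and 4 lay below -5 replicates 2 and 3. At oocyte -1 the 12 genes had levels of 14.2 to 107 CPM, sygl-1 21.4 and nxf-2 37.5 CPM.

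Of the 12 genes furthest below at -3, 11 are described. They included a SUMO protease, a sugar transporter and genes of the Golgi and endosomes. ulp-5 (chromosome I, 6812664 to 6814248), which encodes a SUMO protease, had 0.129, 30.9, 19.5 and 34.9 CPM in the -3 oocytes, against 62.8, 72.6, 49.9 and 91.2 CPM in the -5 oocytes. Its levels were 21.6 CPM at -3 (95% counting interval 20.5 to 22.8) and 72 CPM at -5 (69.7 to 74.3), a ratio of -1.73 (-1.11), and the lowest value was in -3 replicate 1. The glucose transporter homologue fdgt-1 (chromosome II, 1504566 to 1509831) had 10.4, 12.6, 16.2 and 10.1 CPM in the -3 oocytes, against 26.8, 17.2, 21.1 and 75.9 CPM in the -5 oocytes. The ratio of -1.70 (-1.84) was -0.83 without -5 replicate 4, whose value stood far above the other 3. The groups did not overlap in either gene, which the choice of genes required.

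unc-116, the kinesin-1 heavy chain that moves cargo along microtubules, had 8.13, 16.5, 0.372 and 20.5 CPM in the -3 oocytes, against 35.5, 29.9, 28.8 and 24.1 CPM in the -5 oocytes, with -3 replicate 3 near 0. Its ratio was -1.34 (-0.62) and -1.95 without -3 replicate 4. The golgin gene sql-1 had 17.2, 46.4, 27.5 and 29.2 CPM in the -3 oocytes, against 85.6, 57.8, 68.5 and 74.5 CPM in the -5 oocytes, a ratio of -1.31 (-1.01). The phosphoinositide phosphatase gene ocrl-1 had 5.36, 40.1, 13.6 and 36.4 CPM in the -3 oocytes, against 54.5, 46.6, 52 and 60.4 CPM in the -5 oocytes, a ratio of -1.19 (-0.52), so its -3 replicates 2 and 4 lay nearer to the -5 values than replicates 1 and 3. lst-2, a FYVE-domain gene, had a ratio of -1.15 (-0.86).

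Y75B12B.1 had 27.7, 28.4, 28.5 and 59.8 CPM in the -3 oocytes, against 132, 115, 128 and 62.9 CPM in the -5 oocytes, a ratio of -1.46 (-1.12), with the highest -3 value just below the lowest -5 value. W09G12.9 had 9.1, 11.4, 12.7 and 14.3 CPM in the -3 oocytes, against 26.2, 24.9, 33.7 and 28 CPM in the -5 oocytes, a ratio of -1.21 (-1.08), with a narrow spread within each position. The remaining genes, F49D11.10, C24H12.4 and gpap-1, had ratios of -1.39 (-1.03), -1.16 (-0.47) and -1.14 (-0.78). The genes at either end were taken from those without overlap, so their ratios had to keep their sign from -3 replicates 2 and 4 alone.

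**Figure D2:**
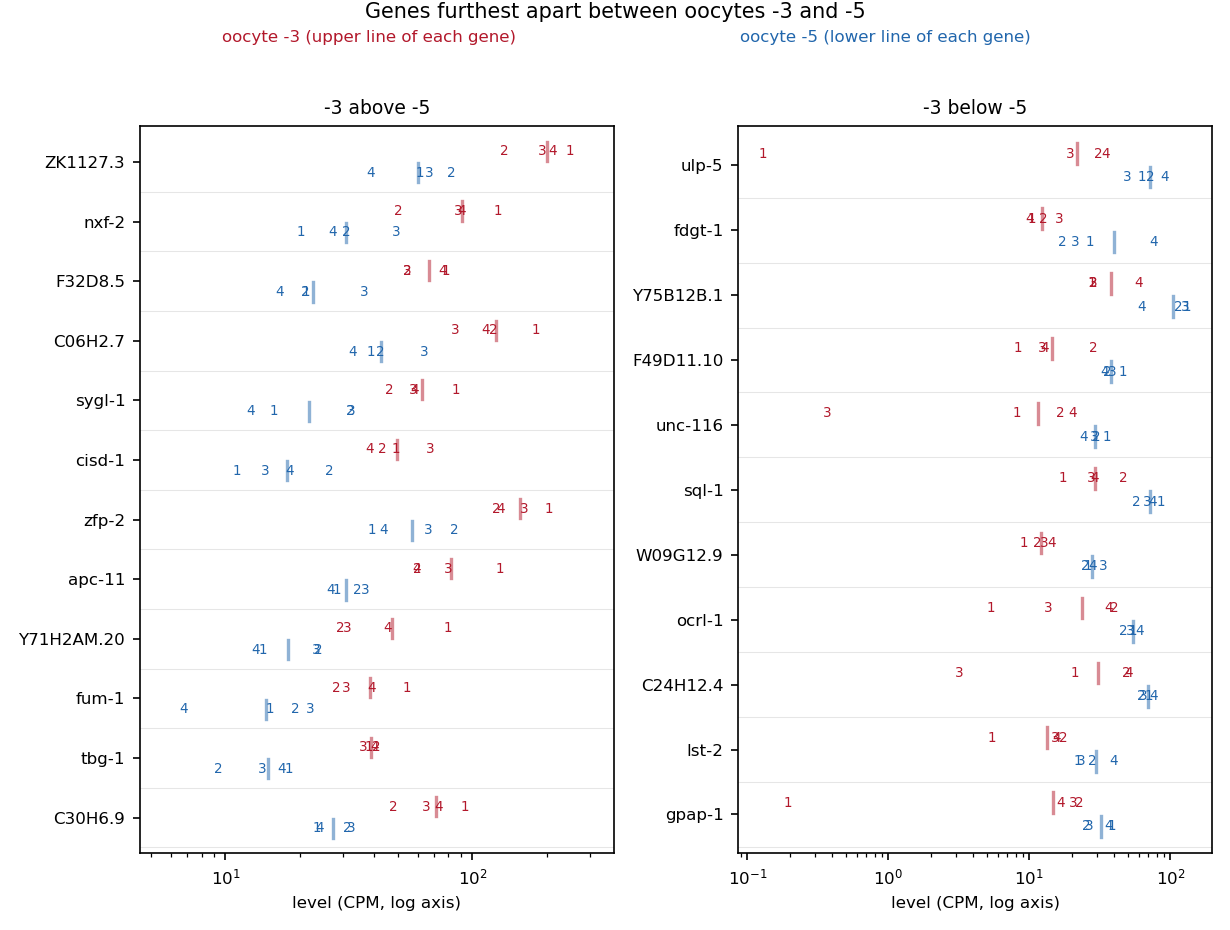
Level of each oocyte in CPM (log axis; digits are replicate numbers, bars the level of the position) for the 12 genes furthest above and 11 of the 12 furthest below at -3, taken from genes with 20 CPM or more and no overlap of the positions. Red -3 digits lie wholly right of blue -5 digits on the left panel and wholly left of them on the right panel; -3 replicate 1 is near 0 in ulp-5 and gpap-1.

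A second group of genes was set by single oocytes. When -3 replicates 2 and 4 alone were set against the 4 of -5, the 6 genes furthest below were spp-10, cht-3, C17G1.2, ctsa-1.1, try-14 and B0513.4, which include a saposin-like, a chitinase, a cathepsin A and a trypsin-like protease gene. cht-3 had 3.23, 2.69, 25.7 and 1.44 CPM in the -3 oocytes, against 11.6, 22.8, 18.7 and 269 CPM in the -5 oocytes. ctsa-1.1 had 22.1, 14, 109 and 5.76 CPM in the -3 oocytes, against 28.4, 62.9, 24.5 and 699 CPM in the -5 oocytes. try-14 had 5.87, 8.75, 218 and 15.3 CPM in the -3 oocytes, against 61.2, 156, 57.6 and 807 CPM in the -5 oocytes. In each of the 6, -5 replicate 4 held the highest value of its position and -3 replicate 3 the highest of its own. Choosing genes by low values in -3 replicates 2 and 4 favours a -3 maximum in replicate 1 or 3.

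Over all 4 oocytes of -3 the ratios of the 6 genes ran from -3.59 (cht-3) to -2.02 (B0513.4), and from replicates 2 and 4 alone from -5.77 (spp-10) to -4.63 (B0513.4). Without -5 replicate 4 they were -1.08 for cht-3, -1.01 for spp-10, -0.56 for try-14, -0.34 for B0513.4, -0.12 for C17G1.2 and -0.07 for ctsa-1.1. Without -3 replicate 3 they were -5.42, -3.62, -4.97, -3.84, -5.62 and -4.27 in the same order. The groups overlapped in all 6.

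The same oocytes led in inx-8 and inx-9, markers of the gonadal sheath. In lim-7 the leading -3 oocyte was the same but the leading -5 oocyte was not, and in ceh-18 both differed. inx-8 (chromosome IV, 11673816 to 11675635), an innexin, had 0.645, 17.6, 28.6 and 5.34 CPM in the -3 oocytes, against 10.697, 46.1, 36.1 and 673 CPM in the -5 oocytes. Its ratio of -4.28 (-4.60) was -1.3 without -5 replicate 4 and -5.13 without -3 replicate 3. Its partner inx-9 had 0, 0, 11.3 and 0.257 CPM in the -3 oocytes, against 1.58, 3.56, 0.0969 and 17.7 CPM in the -5 oocytes, a ratio of -1.25 (-5.47) that turned to 0.68 without -5 replicate 4 and was -6.05 without -3 replicate 3. Of the 7 sheath and spermatheca markers 5 were measured, and fkh-6 had no count in the 8 oocytes. Among the 5, 2 had at least 20 CPM, 3 were past 2-fold lower and 1 lay below without overlap. That 1 was the other measured marker, fln-1, since inx-8, inx-9, lim-7 and ceh-18 overlapped. The log2 fold change of fln-1 was -0.38 in the authors' deposited table of the comparison. The median of the 5 ratios was -1.16 (-2.96), and -3.54 without -3 replicate 3, -0.55 without -5 replicate 1 and -0.33 without -5 replicate 4. Together the 7 held 0.00927, 0.0181, 0.0198 and 0.0143% of counts in the -3 oocytes, against 0.0232, 0.0214, 0.018 and 0.101% in the -5 oocytes, the highest share being that of -5 replicate 4. lim-7, a transcription factor of the sheath, had 0, 0.589, 2.6 and 0 CPM in the -3 oocytes, against 3.64, 0, 0 and 2.63 CPM in the -5 oocytes, highest in -3 replicate 3 and -5 replicate 1. Its ratio of -1.16 (-2.96) was -3.54 without -3 replicate 3 and -0.55 without -5 replicate 1. ceh-18, another, had 1.03, 1.26, 0.062 and 0.154 CPM in the -3 oocytes, against 0.317, 0.553, 0.775 and 0.458 CPM in the -5 oocytes, a ratio of 0.13 (0.17), highest in -3 replicate 2 and -5 replicate 3. Adhering sheath material, more RNA per sheath cell, transcripts taken up from somatic cells and the oocyte's own transcripts cannot be told apart here. Their part in the 6 genes above was not tested.

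**Figure D3:**
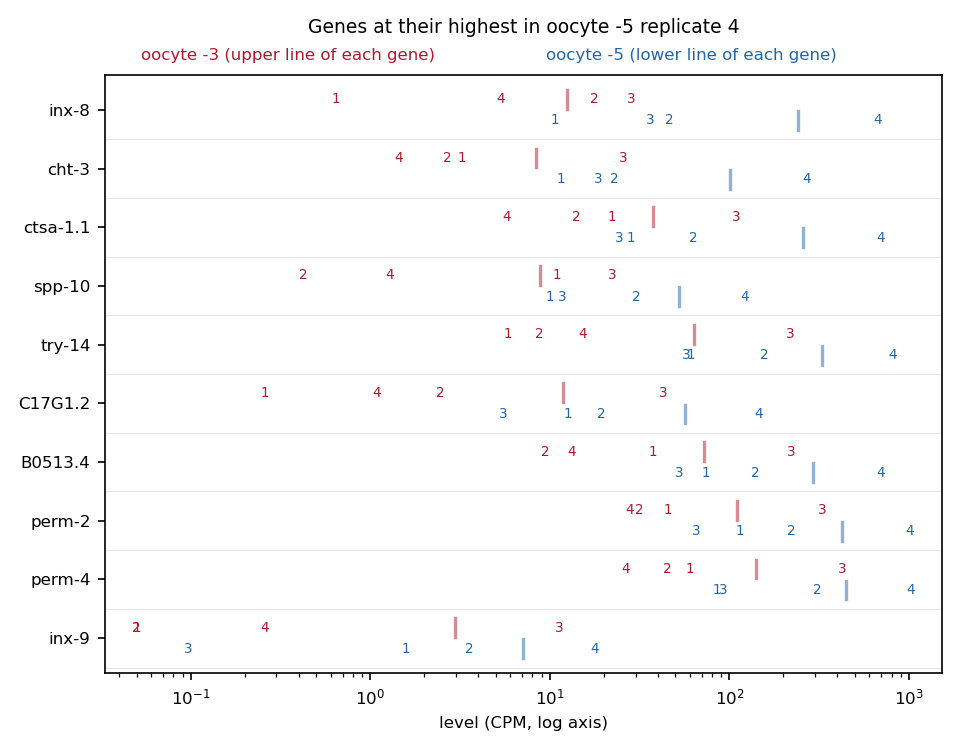
Level of each oocyte in CPM (log axis; digits are replicate numbers, bars the level of the position, values under 0.05 drawn at 0.05) for 6 genes low in -3 replicates 2 and 4 and for inx-8, inx-9, perm-2 and perm-4. Replicate 4 is the highest -5 oocyte and replicate 3 the highest -3 oocyte in all 10 genes. The genes were picked for the figure with their values known, so this holds by choice.

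The rest of the genes furthest above from -3 replicates 2 and 4 were C33G3.4 and rgs-5, besides ZK1127.3, F32D8.5, C06H2.7 and tbg-1. C33G3.4 had 29.5, 53.9, 0.062 and 32.8 CPM in the -3 oocytes, against 19.4, 12, 12.6 and 8.7 CPM in the -5 oocytes, a ratio of 1.11 (1.67), with -3 replicate 3 near 0. rgs-5, a regulator of G protein signalling, had 81.7, 44.8, 33.9 and 68.8 CPM in the -3 oocytes, against 13.8, 34.4, 33.9 and 9.56 CPM in the -5 oocytes, a ratio of 1.46 (1.49). Its lowest -3 value lay just under its highest -5 value.

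Differences followed transcript length, seen after the values were known and chosen for description then. Among genes of at least 20 CPM in 5 length classes of equal size, the median ratio was 0.19 in the shortest (56 to 902 bases of exon) and -0.20 in the longest (2654 to 23084). From -3 replicates 2 and 4 alone these medians were -0.04 and -0.01. Of the 86 genes past 2-fold higher, 35 were in the shortest class and 2 in the longest, and of the 61 past 2-fold lower 9 and 12. The median exon length was 1175.5 bases for the 182 genes with every -3 oocyte above, 1914 for the 175 with every -3 oocyte below and 1558 for all of at least 20 CPM.

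The trend differed between single oocytes. Relative to the mean of the 8, the median gene of the shortest class stood at 0.44 and of the longest at -0.50 (log2 of CPM + 1) in -3 replicate 1. In -3 replicate 3 these were 0.20 and -0.12, and in -5 replicate 4 they ran the other way, -0.33 and 0.28. In -3 replicates 2 and 4 they were -0.12 and -0.07 against 0.18 and 0.14. The part of length in the ratios of single genes was not tested. With the median ratio of its length class taken off, sygl-1 stood at 1.33, ZK1127.3 at 1.56, unc-116 at -1.14 and ulp-5 at -1.82.

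**Figure D4:**
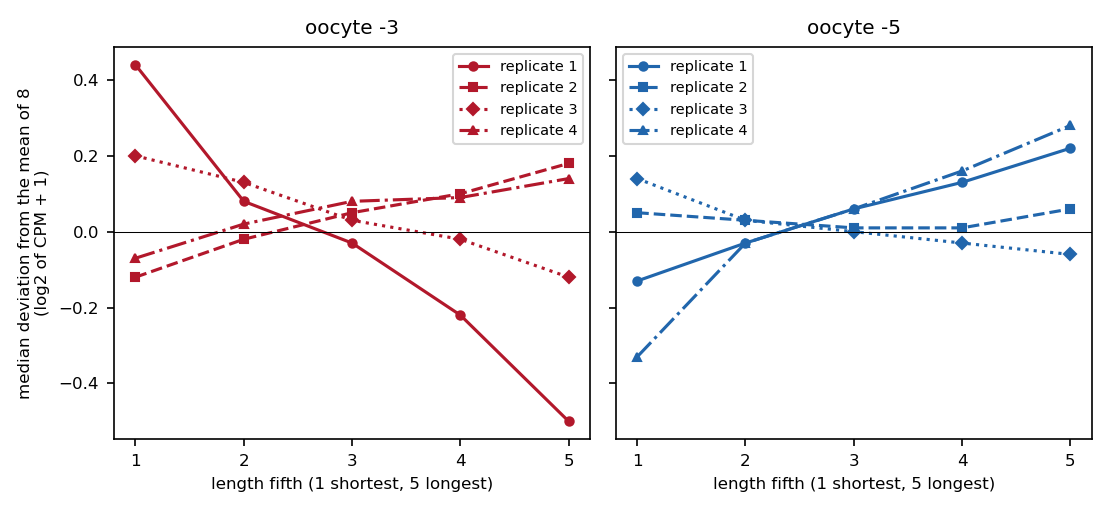
Median deviation of genes of at least 20 CPM from their mean over the 8 oocytes (log2 of CPM + 1, vertical) by class of exon length (1 the shortest, 5 the longest), 1 line per oocyte, -3 left and -5 right. Oocyte -3 replicate 1 runs from 0.44 to -0.50, while -5 replicate 4 runs from -0.33 to 0.28.

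Gene groups that work in the oocyte are described next by how many measured members lay on each side. Their counts past 2-fold or without overlap are to be read against the shares over all genes given above. Medians are to be read against -0.01, and those from -3 replicates 2 and 4 against -0.03. Both values lie just below 0, so all genes together split nearly evenly around 0. That split is the base for the counts of higher members. Brackets after a ratio, a median or a count of higher members again hold the value from -3 replicates 2 and 4. Scaling by total counts took the median of all genes to -0.133, and 5 list medians that were above 0 were below it on that scale, those of break and repair (-0.018), germ granule (-0.099), polymerase (-0.061), mitochondrial ribosomal protein (-0.037) and proteasome genes (-0.09). In the Notch and stem cell list, 6 (6) of 8 members were higher at -3, with a median of 0.27 (0.38) and sygl-1 furthest. fbf-2, which represses differentiation mRNAs in the stem cell zone, had 84.8, 42.5, 38.3 and 45.9 CPM in the -3 oocytes, against 20.7, 34.7, 48.5 and 27.6 CPM in the -5 oocytes, a ratio of 0.74 (0.49). lst-1, the partner of sygl-1, and fbf-1 had ratios of 0.32 (0.34) and 0.23 (0.18), and the Notch receptor glp-1 0.13 (0.42). The Notch co-activator sel-8 and the DNA-binding factor lag-1 were lower, at -1.04 (-0.66) and -0.38 (-0.40). The second receptor, lin-12, had 0.32 (1.32), and -0.58 without -3 replicate 4.

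Of 41 RNA-binding regulators of maternal mRNA, 19 (23) were higher, with a median of -0.04 (0.04) and 4 non-overlapping above and 3 below. nos-2, the Nanos homologue that protects primordial germ cells in the embryo, was the member furthest above. It had 960, 495, 717 and 608 CPM in the -3 oocytes, against 153, 434, 402 and 188 CPM in the -5 oocytes, a ratio of 1.33 (1.01), and 12% of its exon length is shared. The near-identical PUF genes puf-11 and puf-3, whose reads could be split between them, were the furthest below. puf-11 had 482, 834, 580 and 301 CPM in the -3 oocytes, against 1002, 867, 1082 and 1094 CPM in the -5 oocytes, a ratio of -0.97 (-1.01) without overlap, and puf-3 overlapped at -0.90 (-0.93). At oocyte -1 both were lower still, at 349 and 322 CPM.

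lin-41, the TRIM-NHL repressor that prevents early maturation, had 116.01, 101, 85.6 and 73.9 CPM in the -3 oocytes, against 181, 173, 167 and 132 CPM in the -5 oocytes. The positions did not overlap, and its ratio was -0.80 (-0.93). puf-5, a PUF repressor of late oocytes, was level at 0.04 (-0.11), with 1570, 1324, 1255 and 1044 CPM in the -3 oocytes, against 1161, 1175, 1174 and 1387 CPM in the -5 oocytes. oma-1 and oma-2 had ratios of -0.19 (-0.01) and -0.24 (-0.05).

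As a list the 8 oocyte markers had a median of -0.35 (-0.25), and 1 (1) of 8 was above 0. They took 0.962, 2, 0.69 and 1.15% of counts in the -3 oocytes, against 2.55, 1.47, 1.65 and 1.93% in the -5 oocytes, with -3 replicate 3 the lowest and -5 replicate 1 the highest. cbd-1, a chitin-binding protein of the vitelline layer, had 3170, 7423, 1872 and 3760 CPM in the -3 oocytes, against 9554, 5514, 6712 and 6516 CPM in the -5 oocytes, a ratio of -0.88 (-0.45). The eggshell proteoglycan gene cpg-2 had 2092, 4666, 943 and 2933 CPM in the -3 oocytes, against 6636, 3935, 4087 and 4188 CPM in the -5 oocytes, a ratio of -0.88 (-0.39). In both genes -3 replicate 2 lay inside the -5 values. The yolk receptor gene rme-2 had 3238, 2642, 483 and 1598 CPM in the -3 oocytes, against 3059, 2530, 3401 and 1912 CPM in the -5 oocytes, a ratio of -0.45 (-0.39), and egg-1, a receptor-like protein for sperm, -0.06 (0.40).

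Eggshell and egg activation genes were higher in 5 (10) of 21, with a median of -0.32 (-0.19). Past 2-fold, 4 were lower and 1 higher, but 0 were below without overlap and 1 was above. They took 1.91, 3.08, 0.962 and 1.87% of counts in the -3 oocytes, against 3.65, 2.44, 2.63 and 2.85% in the -5 oocytes, so the ranges overlapped. perm-1, for the permeability barrier, had 59.3, 123, 55.1 and 63.9 CPM in the -3 oocytes, against 228, 102, 152 and 121 CPM in the -5 oocytes, a ratio of -1.05 (-0.78). The vitelline layer genes perm-2 and perm-4 were highest in the same oocytes as inx-8 and inx-9. perm-2 had 45.6, 31.5, 328 and 27.9 CPM in the -3 oocytes, against 114, 220, 65.2 and 1010 CPM in the -5 oocytes. Its ratio of -1.95 (-3.86) was -0.33 without -5 replicate 4 and -3.62 without -3 replicate 3, and that of perm-4, -1.67 (-3.74), was -0.25 and -3.40. fasn-1, fatty acid synthase, had 0.0645, 11.4, 9.18 and 4.42 CPM in the -3 oocytes, against 10.6, 9.33, 34.9 and 48.6 CPM in the -5 oocytes, a ratio of -2.23 (-1.97) and -1.55 without -5 replicate 4.

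Against this, gna-2, which makes a precursor of eggshell chitin, was higher, with 1807, 828, 1056 and 986 CPM in the -3 oocytes, against 409, 854, 944 and 293 CPM in the -5 oocytes and a ratio of 1.02 (0.67). The positions overlapped, since -5 replicates 2 and 3 lay above the lowest -3 oocyte.

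Yolk uptake and endocytosis genes were higher in 6 (7) of 22, with a median of -0.21 (-0.14). rab-5, the small GTPase of early endosomes, had 290, 462, 294 and 200 CPM in the -3 oocytes, against 498, 511, 487 and 533 CPM in the -5 oocytes without overlap, a ratio of -0.79 (-0.77). Clathrin heavy chain chc-1 had a ratio of -0.53 (-0.22), and vps-29, of the retromer, was higher without overlap at 0.58 (0.64). Subunits of the V-ATPase, which acidifies endosomes, were higher in 5 (6) of 18, with a median of -0.20 (-0.06). Of these, 1 was above without overlap and 1 below. vha-11 had 50.4, 89.8, 54.3 and 92 CPM in the -3 oocytes, against 109, 122, 107 and 118 CPM in the -5 oocytes, a ratio of -0.68 (-0.33).

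Cell cycle and maturation kinase genes had 13 (21) of 34 members higher and a median of -0.06 (0.08). Cyclin E gene cye-1, which drives entry into S phase, had 25.7, 57.1, 44.2 and 37.8 CPM in the -3 oocytes, against 88.7, 88.1, 84.6 and 64.6 CPM in the -5 oocytes. No overlap was seen, and its ratio was -0.99 (-0.82). The phosphatase gene cdc-25.3 was higher without overlap at 0.84 (0.88). Of 25 DNA replication genes 12 (16) were higher, with a median of -0.02 (0.08) and a mean of 0.08. Without overlap, 2 were above and 2 below. The helicase subunit mcm-3 and GINS subunit psf-2 were those above, at 0.63 (0.83) and 0.78 (0.49). Among those below was mcm-6, at -0.44 (-0.20).

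Meiotic chromosome genes showed small ratios. Of 29 synaptonemal complex, axis and cohesin genes 14 (15) were higher, with a median of -0.03 (0.06) and a mean of 0.04, and 0 were past 2-fold or free of overlap. The furthest were htp-2, of the axis, at 0.75 (0.57), zhp-1, a RING protein of the synaptonemal complex, at -0.66 (-0.49) and syp-3 at 0.65 (0.79). Of 28 break and repair genes 17 (19) were higher, with a median of 0.10 (0.18), and 1 was above without overlap and 2 below. spo-11, which makes meiotic breaks, had 298, 186, 311 and 292 CPM in the -3 oocytes, against 118.7, 153, 234 and 115.8 CPM in the -5 oocytes, a ratio of 0.91 (0.77) with overlap. rpa-2, of the single-strand binding complex, was above without overlap at 0.59 (0.53), and brc-1, the BRCA1 homologue, had -0.55 (-0.16).

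Spindle, kinesin and dynein genes were higher in 10 (15) of 33, with a median of -0.17 (-0.01), and 3 were below without overlap. Beside unc-116 these included spd-1, a bundler of midzone microtubules, at -0.65 (-0.56). The dynein heavy chain dhc-1 had 87.6, 330, 119.1 and 352 CPM in the -3 oocytes, against 505, 339, 312 and 390 CPM in the -5 oocytes, a ratio of -0.81 (-0.18) that rested on -3 replicates 1 and 3. Its cofactor lis-1 had -0.72 (-0.47). Tubulin and centrosome genes, by contrast, were higher in 10 (8) of 13, with a median of 0.22 (0.11). The difference between these lists was not tested. PAR polarity and cortex genes had a median of -0.20 (0.01) over 26 genes, with 1 above without overlap and 1 below. The one above was the myosin light chain mlc-4, at 0.65 (0.44). unc-60, for the actin-severing protein cofilin, had 23, 4.04, 0 and 4.57 CPM in the -3 oocytes, against 0.951, 0.711, 1.36 and 5.89 CPM in the -5 oocytes, a ratio of 1.59 (0.75) set by single oocytes, since it was 0.15 without -3 replicate 1 and 3.0 without -5 replicate 4.

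Germ granule genes, whose products gather RNA outside the nuclear pores, had a median of 0.02 (0.11) over 21, and 2 were above without overlap. mut-2, a nucleotidyltransferase of the RNA interference pathway, had 12.5, 14, 18 and 12.2 CPM in the -3 oocytes, against 7.21, 5.53, 2.91 and 5.89 CPM in the -5 oocytes, a ratio of 1.35 (1.21). deps-1, a P granule component, had 37.2, 34, 40.7 and 30.9 CPM in the -3 oocytes, against 14.4, 12.3, 22.8 and 23.5 CPM in the -5 oocytes, a ratio of 0.94 (0.79). Argonaute and small RNA genes had a median of -0.17 (0.08) over 31, with 10 (22) higher. The one without overlap was rde-10, an RNA interference factor, with 47.4, 25, 34.2 and 36.5 CPM in the -3 oocytes, against 14.3, 16.3, 23 and 13 CPM in the -5 oocytes and a ratio of 1.18 (1.0).

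RNA export and nuclear pore genes were higher in 14 (23) of 46, with a median of -0.12 (0.01), and 2 were above without overlap and 1 below. Importin alpha gene ima-1 was below without overlap at -0.66 (-0.68), and the pore gene npp-13 had -0.62 (-0.32). RNA polymerase II and elongation genes had a median of 0.06 (-0.12) over 40, and 3 were above without overlap. Among them were taf-9, of TFIID, at 1.17 (0.69) and cit-1.2, a cyclin T, at 1.4 (1.05). Histone methylation and DREAM complex genes had a median of -0.06 (0.03) over 27, and set-25, a methyltransferase of histone H3, had -0.51 (-0.52).

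Histone genes had the highest median among the lists of the oocyte's own genes with all 4 oocytes of -3, but not from -3 replicates 2 and 4. Of 43 measured, 36 (25) were higher at -3, with a median of 0.51 (0.17). Past 2-fold, 5 were higher and 1 lower. They took 1.04, 0.73, 1.12 and 0.782% of counts in the -3 oocytes, against 0.624, 0.821, 0.816 and 0.649% in the -5 oocytes. The -3 replicates 1 and 3 thus lay above the range of -5, and replicates 2 and 4 within it. his-62 had 163, 80, 132 and 65.7 CPM in the -3 oocytes, against 33.6, 66.1, 62.7 and 29.6 CPM in the -5 oocytes, a ratio of 1.26 (0.64), and his-59 0.93 (0.47). his-4 was below, at -0.93 (-1.52), and at -0.30 without -5 replicate 2. Reads of near-identical histone genes could be lost or shared, most histone mRNA lacks poly(A) tails, and the median exon length of the list was 557 bases, in the shortest class.

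Cytoplasmic ribosomal protein genes were higher in 21 (6) of 80, with a median of -0.18 (-0.48). Their median member, relative to the mean of the 8, stood at 0.68, -0.36, -0.45 and -0.32 in the -3 oocytes, against 0.54, 0.21, 0.60 and -0.76 in the -5 oocytes (log2 of CPM + 1). So 3 of 4 oocytes were low at -3, replicate 1 being high, and 3 of 4 were high at -5, replicate 4 being low. rla-0, for the stalk protein P0, had 76, 66.1, 48.2 and 73.5 CPM in the -3 oocytes, against 166, 141, 197 and 76.3 CPM in the -5 oocytes, a ratio of -1.04 (-0.95). rpl-10 and rps-7 had ratios of -0.62 (-0.53) and -0.78 (-0.80). Mitochondrial ribosomal protein genes had a median of 0.08 (-0.07) over 70, with mrps-2 at -0.77 (-0.89).

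Translation factors were higher in 12 (13) of 37, with a median of -0.10 (-0.19), and 4 were above without overlap and 0 below. These included eif-2gamma, which brings the initiator tRNA, at 0.73 (0.80) and eif-3.K at 0.75 (0.40). eef-1G, an elongation factor subunit, had 10901, 3986, 4799 and 6566 CPM in the -3 oocytes, against 1799, 5142, 5823 and 1813 CPM in the -5 oocytes, a ratio of 0.98 (0.72). eef-1A.2, an elongation factor gene, was the furthest below at -1.46 (-1.59). Of 31 tRNA synthetases 9 (11) were higher, with a median of -0.23 (-0.15). wars-1, for tryptophan, had 14.9, 7.66, 26.4 and 10.1 CPM in the -3 oocytes, against 4.99, 5.06, 2.42 and 2.4 CPM in the -5 oocytes without overlap, a ratio of 2.04 (1.32). dars-1, for aspartate, had 145, 108, 127 and 99.7 CPM in the -3 oocytes, against 51.9, 54.6, 58.2 and 56.9 CPM in the -5 oocytes without overlap, a ratio of 1.11 (0.89), while ears-1 and qars-1 had -1.06 (-0.56) and -0.86 (-0.61).

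Genes of the mitochondrial genome were higher in 10 (10) of 12, with a median of 0.34 (0.29). That median was 0.07 without -3 replicate 1 and 0.16 relative to the length class. They took 1.68, 1.25, 0.857 and 1.21% of counts in the -3 oocytes, against 0.874, 0.888, 1.03 and 0.933% in the -5 oocytes, so replicate 3 alone of the -3 oocytes lay below the -5 range. COX2, a subunit of cytochrome c oxidase, had 2766, 1748, 831 and 1706 CPM in the -3 oocytes, against 807, 755, 939 and 673 CPM in the -5 oocytes, a ratio of 1.17 (1.15). Replicates 1, 2 and 4 of -3 lay above every -5 value, and replicate 3 among them. COX3 and ND6 had ratios of 0.63 (0.62) and 0.70 (0.40). The nuclear genes of the respiratory chain had a median of 0.13 (-0.05) over 42, with cox-15 and asg-1 above without overlap at 0.77 (0.72) and 0.73 (0.46). Glycolysis and TCA cycle genes had -0.14 (-0.06) over 37, with 1 above without overlap and 1 below. The one below was idh-1, an isocitrate dehydrogenase, at -0.51 (-0.47). Lipid synthesis and storage genes had -0.22 (-0.25) over 21, with 4 past 2-fold lower and 1 higher.

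Protein turnover genes were near level as lists. Proteasome genes had a median of 0.03 (0.00) over 33, and 3 were above without overlap. rpn-9, a lid subunit, had 77.7, 97.6, 81.7 and 91 CPM in the -3 oocytes, against 35.2, 37, 41.1 and 41.1 CPM in the -5 oocytes, a ratio of 1.16 (1.27) in which the -3 oocytes were close to each other. The ubiquitin receptor rpn-13 had 1.06 (1.13) and 1.66 without -5 replicate 4, and the ATPase rpt-2 0.53 (0.44). The SUMO pathway had a median of -0.02 (0.17) over 9. Its modifier smo-1 and the activating enzyme subunit aos-1 were above without overlap, at 0.86 (0.43) and 0.52 (0.46), and the protease ulp-5 below. Chaperones had a median of -0.02 (-0.12) over 52, and 6 were below without overlap and 0 above. hsp-6, the mitochondrial Hsp70, had 109, 204, 127 and 164 CPM in the -3 oocytes, against 342, 269, 301 and 237 CPM in the -5 oocytes, a ratio of -0.93 (-0.65). The chaperonin subunits cct-3 and cct-8 had -0.86 (-0.63) and -0.72 (-0.65).

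**Figure D5:**
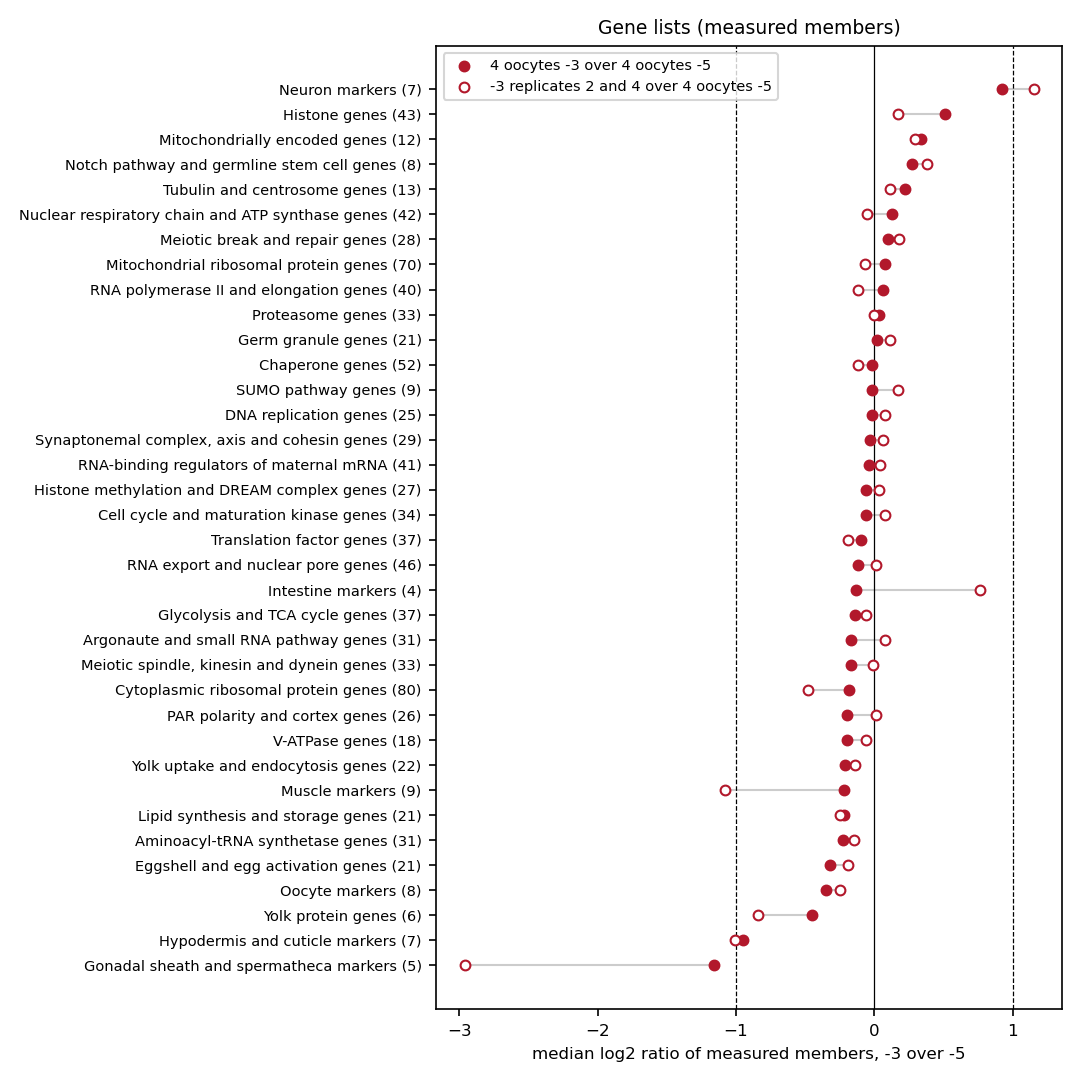
Median log2 ratio of the -3 level over the -5 level for each gene list (horizontal; number of measured members in brackets), filled for all 4 oocytes of -3 and open for -3 replicates 2 and 4. Most lists lie within 0.5 of 0; histone genes move from 0.51 to 0.17 and ribosomal protein genes from -0.18 to -0.48 when -3 replicates 1 and 3 are left out.

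Markers of other tissues took small shares of counts, though the muscle gene unc-54 was abundant, and the medians of these lists rested on few oocytes. The 6 yolk protein genes, made in the intestine, were all lower at -3, with a median of -0.45 (-0.84), and took 0.00953, 0.00668, 0.0116 and 0.0124% of counts in the -3 oocytes, against 0.013, 0.0156, 0.0261 and 0.00933% in the -5 oocytes. vit-1 had 4.52, 2.86, 6.02 and 5.81 CPM in the -3 oocytes, against 7.92, 9.72, 20.5 and 8.18 CPM in the -5 oocytes and vit-5 4.9, 11.4, 10.9 and 11.8 CPM in the -3 oocytes, against 18.2, 20.3, 25.5 and 12.36 CPM in the -5 oocytes, both without overlap and with ratios of -1.13 (-1.22) and -0.90 (-0.65). vit-2, vit-3, vit-4 and vit-6 had ratios of -0.27 (-0.02), -0.23 (-0.79), -0.46 (-1.02) and -0.44 (-0.89), and vit-4 0.63 without -5 replicate 2. Near-identical vitellogenin genes could share reads. Of 10 intestine markers 4 were measured, ges-1 had no count, and the 10 took 0.00143% at -3 and 0.00156% at -5. Their median was -0.13 (0.76), and -1.85 without -3 replicate 4.

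The 7 measured markers of hypodermis and cuticle had a median of -0.95 (-1.01), which was 0.07 without -5 replicate 4, and took 0.0224, 0.00841, 0.011 and 0.0149% of counts in the -3 oocytes, against 0.0125, 0.0137, 0.0179 and 0.0571% in the -5 oocytes. col-140 had a ratio of -1.09 (-1.41), and -0.25 without -5 replicate 4. Muscle markers had a median of -0.22 (-1.08) over 9 and took 0.0667, 0.114, 0.0851 and 0.0196% of counts in the -3 oocytes, against 0.0707, 0.0355, 0.0331 and 0.102% in the -5 oocytes. The myosin gene unc-54 had 703, 1069, 808 and 167 CPM in the -3 oocytes, against 592, 341, 265 and 760 CPM in the -5 oocytes. It held most of the muscle share in each oocyte. Neuron markers had a median of 0.92 (1.15) over 7, which was -0.09 without -3 replicate 2, although the list took 0.0286% at -3 and 0.0405% at -5. unc-18 and snb-1, of vesicle fusion, had ratios of -0.37 (-0.28) and -0.43 (-0.28). The part of other tissues in these counts was not tested.

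The 10 genes with the most CPM began with clec-87, of the C-type lectins, and ndk-1, for a nucleoside diphosphate kinase. clec-87 had 53769, 28145, 26997 and 40369 CPM in the -3 oocytes, against 17087, 35735, 39119 and 15241 CPM in the -5 oocytes, a ratio of 0.59 (0.50). ndk-1 had 52692, 18632, 25697 and 28245 CPM in the -3 oocytes, against 12210, 32800, 33892 and 11087 CPM in the -5 oocytes, a ratio of 0.60 (0.23). In both, -5 replicates 1 and 4 held less than any other oocyte. rmd-1 had 17262, 5928, 14275 and 9811 CPM in the -3 oocytes, against 2660, 10156, 9587 and 2834 CPM in the -5 oocytes, the widest ratio of the 10 at 1.04 (0.51). F23A7.8, F23A7.4, sip-1, ant-1.1, rpl-12 and clec-88 had ratios of 0.84 (-0.06), 0.65 (-0.04), 0.41 (0.04), 0.55 (0.35), 0.43 (0.26) and 0.55 (0.80). The elongation factor gene eef-1A.1 was even across the 8, with 6731, 5378, 5575 and 5518 CPM in the -3 oocytes, against 6182, 6507, 6291 and 6016 CPM in the -5 oocytes. The positions overlapped in all 10 genes.

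In the authors' deposited table of the same comparison, 6813 of the 8718 genes were found by symbol. The sign of its log2 fold change matched that of the ratio in 95.6% of these, and in all 608 of them that were past 2-fold here. That table comes from the same oocytes, so the match is not independent.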

How the data were processed

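Single oocytes of wild-type adults were lysed, and poly(A) RNA was amplified with a 3′ end kit (SMART-seq v4 3′ DE), per the labels' protocols. Per the submitters' processing notes, cutadapt 1.18 trimmed the reads, FastQC 0.11.5 was run on them, STAR mapped them and featureCounts 1.5.3 counted them, while the file header names version 1.6.4 and the WS271 annotation of WormBase. No source used here gives a genome build, so positions are printed as they stand in the table. The deposited table holds raw counts per gene and exon length. Its header shows no strand or multi-mapping option, so antisense, overlapping and near-identical genes are uncertain. The authors' deposited table of the comparison holds log2 fold changes (DESeq2 1.32.0, per the submitters' processing notes). It was used for signs and for the value of fln-1.

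Genes were kept by the default low-count filter of edgeR 4.0.16 in R 4.3.3 over the 12 oocytes, and libraries were scaled by TMM. Each level is the sum of 4 counts over the sum of 4 scaled totals. A ratio against fewer than 3 counts over the group used that floor (0.0476 CPM at -3, 0.0565 CPM at -5). Kits without molecular identifiers count PCR copies, while the intervals and floors take each read as independent. Intervals can therefore be too narrow even for counting error, and they leave out the spread between oocytes. The labels name no animals, so each position counts as 1 sample, and no p-value is given. The ratios were checked on simulated counts.

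Genes were named by rule: the 12 highest and 12 lowest ratios among genes with 20 CPM or more and no overlap of the positions, the 6 at each end from -3 replicates 2 and 4, up to 5 members per list of largest ratio among those of at least 5 CPM, the oocyte markers, the 10 genes of most CPM, and members of lists of 8 genes or fewer. A gene that the rule names is not reported here. The comparison, the lists and the rule were chosen with earlier results of these data known. Alternatives were DESeq2 1.42.0 size factors, total counts, other filters, a mean over oocytes on a log2 scale with 1 CPM added, a 1.5-fold limit, leaving out oocytes, and taking off the median ratio of the length class, which was added after seeing the data. No sequences are shown, and the oocyte -1 comparisons were not analysed here.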

Additional observations from a re-analysis of the deposited data

Results flagged for a closer look

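In 54 of 360 sets of 4 oocytes looked at, over 144 genes and 36 lists, 1 oocyte lay so far from the other 3 of its position that its gap passed the 95% critical value of Dixon's criterion. Chance alone gives that in about 1 of 20 sets. The count of 54 cannot be read against that share, since dyf-3, M04D5.1, rrn-3.1, skpo-1, far-2, cpl-1, T04G9.7, C39D10.7 and ddo-3 were chosen after their values were seen, and other genes by their ratios.

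Oocyte -5 replicate 4 stood alone at the upper end in 18 genes. Its CPM values were cht-3 269, C17G1.2 146, ctsa-1.1 699, try-14 807, B0513.4 697, inx-8 673, perm-2 1010, fdgt-1 75.9, skpo-1 997, far-2 904, cpl-1 169, T04G9.7 787, C39D10.7 634, ddo-3 317, puf-5 1387, set-25 177 and unc-60 5.89. The ribosomal RNA gene rrn-3.1 had 15272 CPM there. At the lower end it held 64.6 CPM of cye-1.

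Oocyte -3 replicate 3 stood alone at the upper end in an overlapping set, with CPM values of cht-3 25.7, C17G1.2 43, ctsa-1.1 109, try-14 218, B0513.4 221, inx-9 11.3, perm-2 328, perm-4 428, T04G9.7 225, C39D10.7 189 and ddo-3 46.8. The part of adhering sheath material, or of transcripts taken up from somatic cells, in these values was not tested.

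Oocyte -3 replicate 1 stood alone with eef-1A.1 6731, fbf-2 84.8 and ND6 10401 CPM at the upper end, and with sel-8 0, brc-1 10.1, cct-3 57.5 and vit-5 4.9 CPM at the lower end. Its median member, relative to the mean of the 8 on the log2 scale of CPM + 1, was 0.68 in ribosomal protein genes, -0.26 in RNA-binding regulators, -0.37 in the SUMO pathway and -0.22 in chaperones.

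Other single oocytes were -3 replicate 4, with 59.8 CPM of Y75B12B.1 and 84.7 CPM of dyf-3, and -3 replicate 2, with 123 CPM of perm-1 and 186 CPM of spo-11. Among -5 oocytes, replicate 1 held 6636 CPM of cpg-2 and 388 CPM of egg-1, replicate 2 held 27 CPM of his-4, and replicate 3 held 20.5 CPM of vit-1 and 102 CPM of vit-2. On the scale relative to the mean of the 8, the median proteasome gene was 0.25 in -3 replicate 3 and 0.17 in -5 replicate 4, the median yolk protein gene -0.90 in -3 replicate 2, and the median eggshell gene 0.01 in -5 replicate 2.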

How the results depend on the processing

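Of 624 values of gene counts and list medians under alternatives, 571 kept within the limits set (1.5 times for a count, the spread between oocytes for a median) and 53 moved past them. The 697 genes higher, 793 lower and 212 past 2-fold without overlap became 1655 and 2332 with no filter beyond 3 counts, 237, 165 and 127 from 5 CPM, and 1485, 1496 and 402 at 1.5-fold. With filter and scaling from the 8 oocytes, 484 were lower, and with the mean on the log2 scale 259 were higher and 496 lower. Higher genes were 46.8% of those past 2-fold, 59% from 5 CPM and 34.3% with the mean on the log2 scale. Without -3 replicates 1 and 3, 487 were past 2-fold without overlap, and with 1 oocyte left out 271 to 439, where 3 oocytes overlap less often by construction.

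Scaling by total counts moved the median of all genes to -0.133, and list medians to -0.15 for synaptonemal complex, -0.18 for cell cycle, -0.14 for replication, -0.061 for polymerase, -0.22 for translation factor, -0.14 for chaperone and 0.095 for tubulin genes, values to be read against that shift. With no filter the neuron median was 0.37, and with the mean on the log2 scale 0.31, while the lipid and sheath medians were -0.47 and -0.39. Without -3 replicates 1 and 3 the medians were 0.082 for cell cycle, 0.084 for replication, -0.12 for polymerase, -0.068 for mitochondrial ribosomal, -0.053 for respiratory, -0.12 for chaperone and 0.014 for polarity genes, and -2.96, 0.76 and -1.08 for sheath, intestine and muscle markers. With 1 oocyte left out the medians ran from -0.54 to -0.19 for lipid, -0.12 to -0.024 for chaperone, -0.15 to 0.045 for synaptonemal complex, -0.23 to -0.043 for translation factor and 0.078 to 0.37 for Notch genes, and from -0.092 to 1.16 for neuron, -3.54 to -0.33 for sheath, -1.85 to 0.24 for intestine and -1.32 to 0.069 for hypodermis markers. Among named genes, 3 that were past 2-fold lower changed sign without -5 replicate 4, inx-9 (0.68), skpo-1 (0.35) and cpl-1 (0.20), and with 1 oocyte left out they ran from -6.05 to 0.68, -4.68 to 0.35 and -3.37 to 0.20. No paired analysis was possible because the results come from no test. Oocytes sharing a number deviated from their position means with correlations of -0.271, -0.373, -0.243 and 0.045. The marker lists of other tissues were limited by single oocytes, as the ranges with 1 oocyte left out show.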

Other observations

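The genes in these paragraphs were chosen after their values were seen. At -5, 2 genes had no count in any oocyte and a count in every -3 oocyte. dyf-3, which builds sensory cilia in neurons, had 16.3, 3.11, 4.03 and 84.7 CPM in the -3 oocytes, against 0 CPM in the 4 of -5, so it was at least 563-fold higher at -3 taking 3 counts over the 4 oocytes as the floor. The log2 bound was 7.17 without -3 replicate 4, which held most of its counts. M04D5.1 had 7.48, 2.27, 2.6 and 1.54 CPM in the -3 oocytes, against 0 CPM in the 4 of -5, at least 60.4-fold higher, and its log2 bound was 5.21 without -3 replicate 1. At oocyte -1 the levels of dyf-3 and M04D5.1 were 1.24 and 0.38 CPM. In the other direction, 18 genes had no count at -3 and a count in every -5 oocyte, the one with most counts, rig-3, at 1.98 CPM over the 8.

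The 6 genes that follow were, like inx-8 and inx-9, highest in -5 replicate 4 and, within -3, in replicate 3. skpo-1, a peroxidase gene, had 1.68, 40, 221 and 8.43 CPM in the -3 oocytes, against 39.1, 82.3, 32.7 and 997 CPM in the -5 oocytes, a ratio of -2.44 (-4.16), which was 0.35 without -5 replicate 4 and -4.68 without -3 replicate 3. far-2, for a fatty acid and retinol binding protein, had 153, 77.5, 383 and 49.8 CPM in the -3 oocytes, against 147, 243, 204 and 904 CPM in the -5 oocytes, a ratio of -1.38 (-2.84), which was -0.26 and -2.24 without the same oocytes. cpl-1, a cathepsin L protease gene, had 1.03, 14.1, 45.1 and 5.7 CPM in the -3 oocytes, against 9.51, 15.3, 18.4 and 169 CPM in the -5 oocytes, a ratio of -2.0 (-2.87), which was 0.20 and -3.37. For T04G9.7, C39D10.7 and ddo-3 the ratios were -2.25 (-4.26), -2.04 (-3.53) and -2.94 (-4.57), without -5 replicate 4 -0.32, -0.10 and -0.67, and without -3 replicate 3 -4.83, -3.84 and -4.57. The ribosomal RNA gene rrn-3.1 was highest in replicate 4 of both positions. It had 1001, 1722, 2336 and 3356 CPM in the -3 oocytes, against 3158, 2874, 2623 and 15272 CPM in the -5 oocytes, a ratio of -1.66 (-1.35), and -0.40 without -5 replicate 4.

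By chromosome, among genes of at least 20 CPM, every -3 oocyte lay above in 2.72% of 882 genes on chromosome IV to 4.64% of 711 on chromosome V, and below in 3.23% of 928 on chromosome II to 4.08% on chromosome IV. On chromosome X, 3 of 408 genes (0.735%) lay wholly above and 7 (1.72%) wholly below, with a median ratio of -0.09. These shares were not tested against each other.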
